A study of Mus musculus with 6 samples.

Results

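Axon guidance ligands and receptors were followed in whole mouse brains that lacked Mphosph8 in the nervous system. The set held 54 listed genes of the ephrin, semaphorin, plexin, slit and netrin pathways, matched by GENCODE M21 symbol to 54 of the 54532 gene identifiers counted in each library. It was made of 7 ephrins and 11 Eph receptors, 11 semaphorins, 10 plexins and neuropilins, 3 slits and 3 robo receptors, and 9 genes around the netrins. Whole brains were taken at postnatal day 14 from C57BL/6J mice, 3 controls with the genotype Mphosph8fl/+ Nestin-Cre+ and 3 mutants with Mphosph8fl/fl Nestin-Cre+, labelled Mphosph8∆n. All 6 mice thus carried the Cre transgene and at least 1 floxed allele, and no library came from a mouse without Cre. The study's text calls the controls Nestin-Cre+ littermates and names no floxed allele. If the labels hold, Cre would also have deleted 1 Mphosph8 allele in the neural cells of the controls. The control titles carry the mark HET. Every fold change, that of Mphosph8 included, is then measured against heterozygous brains and not against brains with intact Mphosph8. The Nestin promoter drives Cre in neural progenitors, so vessel cells and microglia, which do not come from them, are not its targets. Each library was 1 brain, and the libraries held 12956880 to 15223424 counts.

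Growing axons read guidance cues through receptors on their growth cones. Ephrins are cell-bound ligands of the Eph receptor tyrosine kinases, semaphorins act through plexins, with neuropilins as coreceptors for most of the secreted class 3, and slits repel through robo receptors. Netrin-1 attracts through DCC and repels through UNC5 receptors, draxin binds DCC, and RGMa binds neogenin. MPP8, the product of Mphosph8, is a subunit of the HUSH complex, which silences transcription, and the study asked which transcripts change in the brain when it is lost.

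None of the 54 guidance genes changed between control and mutant brains by edgeR's quasi-likelihood test at an adjusted p under 0.05, which 0.628% of all 16731 genes tested did (0.532% with a higher and 0.0956% with a lower level in mutants, and 0.359% with a fold change over 2 besides). At an unadjusted p under 0.05 there were 4 members (7.41%), against 6.51% of all genes tested, so the share was near the background. Epha10 was the 1 with a higher mean in mutants (1.85%, against 4.09% of all genes), and Sema4d, Sema6a and Unc5b were the 3 with lower means (5.56%, against 2.41%). All 54 members passed the filter on low counts, with 74 to 3624 counts per library, so none was left out of the test. Log2 fold changes (mutant over control) ran from -0.32 to 0.22 with a median of -0.05, beside -0.01 for the other genes tested, and 35 members were within 0.1 of no change. The members were measured somewhat more precisely than most genes, with a median standard error of 0.10 on the log2 scale against 0.11 and a median level of 50.3 CPM (a gene's counts scaled to library size) against 20.7.

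The intervals bound the changes that could have been missed. Taken one at a time, the 95% intervals of all 54 log2 fold changes lay within a 2-fold change either way, and those of 53 within 0.5 on the log2 scale. The exception was Sema4d, at -0.53 to -0.11. The widest ran from -0.47 to 0.30, for Epha6, which was among the lowest members. Changes in a small cell population or brain region could not be seen in whole-brain RNA, and in bulk tissue fewer cells of a type and less RNA per cell cannot be told apart.

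**Figure D1:**
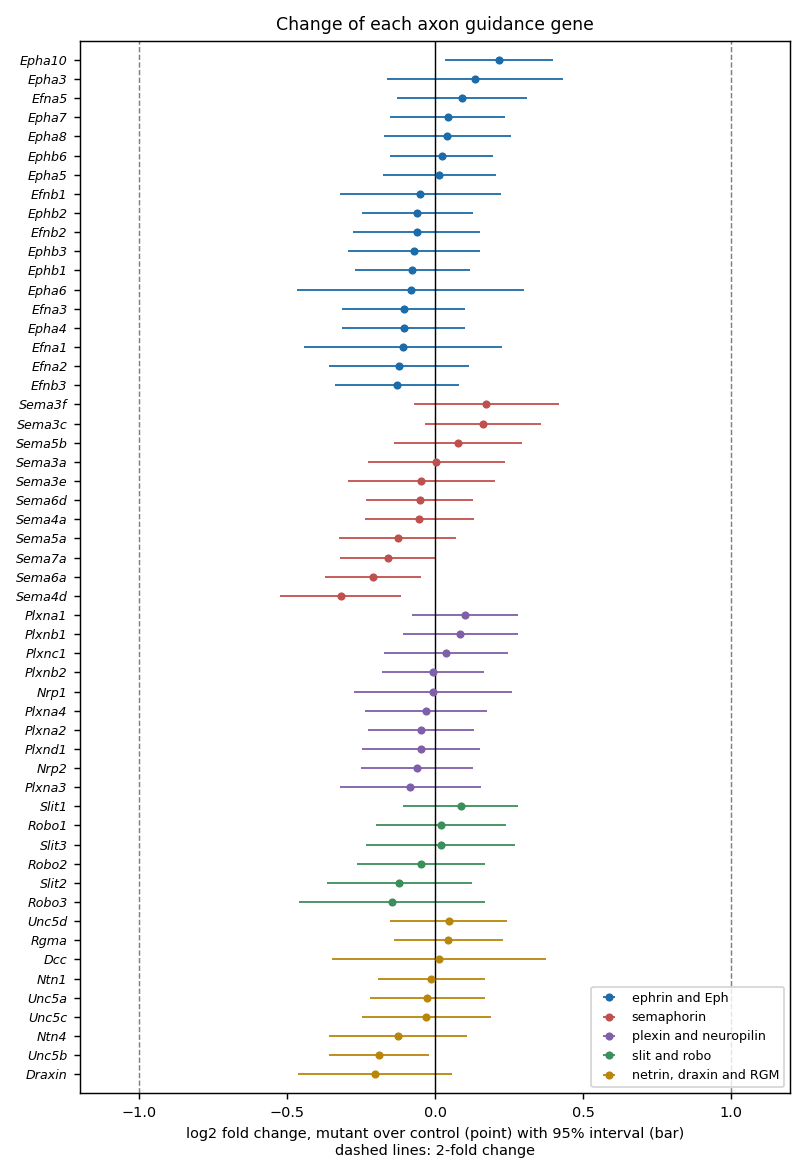
Log2 fold change of each of the 54 guidance genes, mutant over control, on the horizontal axis, with its 95% interval from the edgeR fit (3 libraries per group), grouped by family on the vertical axis. Every interval lies between the dashed lines that mark a 2-fold change, and the intervals of Epha10, Sema4d, Sema6a and Unc5b leave out 0.

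The targeted gene was lower in every mutant. Mphosph8 stood at 55.8, 48.6 and 70.7 CPM in controls and 33.1, 27.2 and 26.5 CPM in mutants, without overlap, and fell by 1.02 ± 0.12 on the log2 scale (SE, edgeR adjusted p 0.000157). Marker genes of brain cells and regions were detected throughout, and none of them was at 0 counts. All 7 oligodendrocyte markers used (Mbp, Mog, Mag, Mobp, Cnp, Cldn11 and Mal) were lower in mutants, with a median log2 fold change of -0.46, and Mal, Mog and Cldn11 passed the adjusted test. Their summed level was 15558 to 19195 CPM in controls and 13165 to 14840 CPM in mutants. No gene of the other lists passed, whose median log2 fold changes were -0.04 for neurons, 0.07 for astrocytes, -0.11 for oligodendrocyte progenitors, 0.09 for microglia, -0.09 for vessels, -0.08 for cerebellar granule and Purkinje cells, 0.0038 for cortex and hippocampus, -0.19 for midbrain and hindbrain and -0.25 for choroid plexus. Besides the oligodendrocyte sum, the oligodendrocyte progenitor and choroid plexus sums did not overlap between groups, and those of the remaining lists did. The progenitor sum was 1026 to 1056 CPM in controls and 912 to 1013 CPM in mutants. For choroid plexus it was 1407 to 1698 CPM in controls and 1037 to 1239 CPM in mutants. The midbrain and hindbrain list ran from -0.64 (Hoxc4) to 0.79 (Pax7), with 2 genes higher and 5 lower in mutants. Pax7 was low, at a mean of 1.08 CPM in controls and 1.87 CPM in mutants. Control replicate 3 stood apart by its sex-linked genes, with 1338 counts of the Y-linked Ddx3y and 27 of Xist, while the other 5 libraries had 0 counts of Ddx3y and 11130 to 17697 of Xist. By these counts control replicate 3 was male and the other 5 mice, all mutants among them, were female. The labels used here give no sex, and the part of sex in the members' values was not tested.

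The levels of the members differed far more between genes than between genotypes. On a per-length scale (CPM per kb of exon, mean ± SD of 3 controls), the highest member was Efnb3, the ligand ephrin-B3, at 61.7 ± 2.99, followed by Sema7a, a membrane-anchored semaphorin, at 48.4 ± 1.59 and Sema4d, a transmembrane semaphorin, at 30.1 ± 1.16. The lowest was the netrin receptor gene Dcc, at 0.787 ± 0.141, and the secreted repellents Slit2 and Sema3a were also low, at 1.19 ± 0.166 and 1.85 ± 0.182. In mutants the same quantities were 56.5 ± 9.25 for Efnb3, 43.4 ± 2.27 for Sema7a, 24.1 ± 3.69 for Sema4d, 0.797 ± 0.196 for Dcc, 1.10 ± 0.136 for Slit2 and 1.86 ± 0.222 for Sema3a. Each of these genes kept its place near the top or the bottom. The scale divides by all annotated exon bases, which were 13171 for Dcc, 25433 for Slit2 and 13868 for Sema3a, against 3183 for Efnb3. Ranks in CPM can differ from these, and Slit2, at 30.4 CPM in controls, was above Slit3 at 21.0 CPM.

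**Figure D2:**
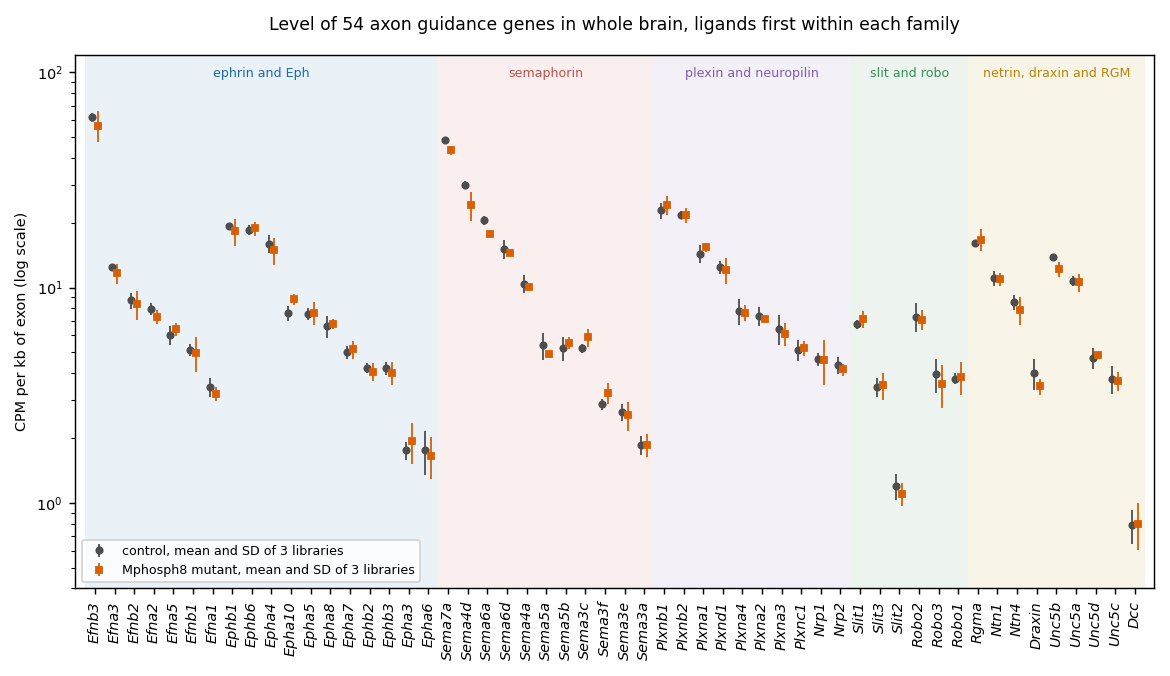
Level of each guidance gene in CPM per kb of exon (vertical axis, log scale), mean and SD over 3 control libraries (grey circles) and 3 Mphosph8 mutant libraries (orange squares), by family with ligands first. Efnb3 is highest at 61.7 in controls and 56.5 in mutants, Dcc lowest at 0.787 and 0.797, and the bars of the groups overlap for most genes.

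Among the ephrins and Ephs, 7 members had a positive and 11 a negative log2 fold change. Efnb3 was at 206, 196 and 187 CPM in controls and at 213, 168 and 158 CPM in mutants. Its highest and its lowest value both came from mutant brains, and the log2 fold change of -0.13 ± 0.10 (SE) did not pass (adjusted p 0.921 by edgeR). The other ligands were far below it per length, from Efna3 at 12.5 ± 0.350 CPM per kb (SD, n = 3) to Efna1 at 3.44 ± 0.342 in controls. Efna1 and Efna3 lie 32.8 kb apart on chromosome 3, and the log2 fold change of Efna1 was -0.11 ± 0.16 (SE, edgeR adjusted p 0.972). Efna2, at 17.6, 17.5 and 15.7 CPM in controls and 16.9, 14.6 and 15.3 CPM in mutants, also overlapped between groups, at -0.12 ± 0.11 (adjusted p 0.935). Efna5, a ligand known for mapping retinal axons, was at 0.09 ± 0.10 (adjusted p 0.956).

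The Eph receptors were led by Ephb1 (19.2 ± 0.755 CPM per kb in controls), Ephb6, whose kinase domain is inactive (18.5 ± 0.958), and Epha4, the receptor through which ephrin-B3 holds corticospinal axons at the midline (16.0 ± 1.51). Ephb1 was at 133, 130.4 and 140.4 CPM in controls and at 148, 115 and 119.7 CPM in mutants. The mutant values lay on both sides of the controls, and the log2 fold change was -0.08 ± 0.09 (SE, edgeR adjusted p 0.959). Epha10, a receptor without kinase activity, was at 50.1, 55.0 and 58.8 CPM in controls and at 60.3, 62.7 and 67.2 CPM in mutants. Every mutant value was above every control value, as the groups were for 6.23% of all genes tested in this direction. At 0.22 ± 0.09 its log2 fold change was the most positive of the 54, and it was not called (edgeR adjusted p 0.610). Epha6 was the lowest receptor, at 6.98, 9.59 and 11.2 CPM in controls and 11.0, 7.99 and 7.34 CPM in mutants, with a log2 fold change of -0.08 ± 0.18.

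Of the semaphorins, Sema4d had the log2 fold change farthest from 0 of all 54 members. Sema4d (ENSMUSG00000021451, chromosome 13, 51685529 to 51793747, GRCm38), which signals through plexin-B receptors and is made by oligodendrocytes in the brain, was at 241, 224 and 228 CPM in controls and at 214, 184 and 157 CPM in mutants. All mutant values were below all control values. The mean went from 231 ± 8.89 to 185 ± 28.4 CPM (SD, n = 3), a difference of -19.9%. The log2 fold change of -0.32 ± 0.10 (SE) had an edgeR p of 0.00437 before and 0.273 after adjustment. Whether Sema4d was called turned on 1 library and on the filter. Without mutant replicate 1, the highest of the mutants, it was at -0.44 (edgeR adjusted p 0.0087), and with no filter on low counts at -0.32 (adjusted p 0.0392). The fit with no filter called 242 of 32278 genes over the whole table, against 105 of 16731 with it. In that fit the edgeR adjusted p of Mphosph8 also moved, from 0.000157 to 7.57e-22, at a log2 fold change of -1.02 in both. Over the 12 alternatives the adjusted p of Sema4d ran from 0.0087 to 0.999. From high to low, Sema4d and the summed oligodendrocyte markers were both ordered replicate 1, 2, 3 in mutants. In controls Sema4d was ordered 1, 3, 2 and the marker sum 2, 1, 3. Taken singly in controls, Mbp and Mobp had the order of the sum, and Mog, Mag, Cnp, Cldn11 and Mal were ordered 1, 2, 3. In mutants Mobp and Mal were ordered 2, 1, 3, and Mbp, Mog, Mag, Cnp and Cldn11 were ordered 1, 2, 3. The part of the lower marker level in the Sema4d values was not tested.

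Sema6a (ENSMUSG00000019647, chromosome 18), a transmembrane ligand of plexin-A2 and plexin-A4, was at 173, 179 and 189 CPM in controls and at 157, 153 and 157 CPM in mutants. The groups did not overlap, and the CV over the mutant libraries was 1.37%. Its log2 fold change was -0.21 ± 0.08 (SE, edgeR adjusted p 0.481). Sema6a shares its chromosome with the clustered protocadherins, at a distance of 9.39 Mb. The other member on chromosome 18, Dcc, lies 33.4 Mb from them and had a log2 fold change of 0.01. Sema7a, which binds plexin-C1 and integrins, was at 160.2, 154 and 165 CPM in controls and at 152, 138 and 139 CPM in mutants. Here too the groups did not overlap, at a log2 fold change of -0.16 ± 0.08 (edgeR adjusted p 0.776). Together 5 members (9.26%) had groups without overlap, against 11.6% of all genes tested. With Unc5b, 4 of the 5 were lower in mutants (7.41%, against 5.42% of all genes tested).

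The secreted class 3 semaphorins were lower per length and showed no common direction. Sema3c was at 38.0, 35.4 and 38.8 CPM in controls and 45.3, 42.8 and 37.5 CPM in mutants, with a log2 fold change of 0.16 ± 0.09 (SE, edgeR adjusted p 0.875). Sema3f, a ligand of neuropilin-2, was at 0.17 ± 0.12 (adjusted p 0.904). Sema3a, the founding growth cone collapsing factor, was at 24.1, 24.4 and 28.6 CPM in controls and 26.9, 28.1 and 22.3 CPM in mutants. Its groups lay over each other, and its log2 fold change of 0.0035 ± 0.11 was the smallest of the 54.

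**Figure D3:**
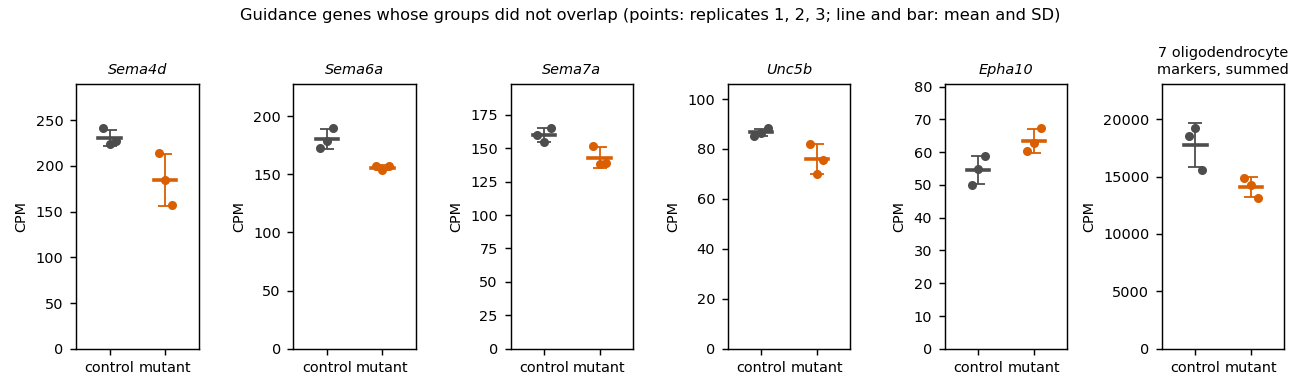
CPM per library of the 5 guidance genes whose control and mutant values did not overlap, and the summed level of 7 oligodendrocyte markers (vertical axes in CPM, starting at 0). Points are replicates 1, 2 and 3 from left to right, with mean and SD. Sema4d, Sema6a, Sema7a and Unc5b are lower and Epha10 is higher in mutants, each by less than the adjusted test requires, and the marker sum does not overlap between groups.

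The receptors of the semaphorins had the narrowest range of log2 fold changes among the 5 families, from -0.08 to 0.10 over 8 plexins and 2 neuropilins. Plxnb1, the main receptor of Sema4d, was the highest receptor per length, at 22.8 ± 1.96 CPM per kb in controls and 24.2 ± 2.44 in mutants (SD, n = 3). Its values were 200.3, 238 and 218 CPM in controls and 252, 206 and 238 CPM in mutants, with overlap and a log2 fold change of 0.08 ± 0.09 (SE, edgeR adjusted p 0.950). The ratio of Sema4d to Plxnb1, both per length, was 1.50, 1.18 and 1.30 in controls and 1.06, 1.12 and 0.824 in mutants. That ratio did not overlap between groups, and neither did Sema6a over Plxna2, at 2.67 to 3.01 in controls and 2.40 to 2.56 in mutants. Both ligands were already without overlap on their own, and 11.6% of all genes tested were. The other 11 ligand and receptor pairs examined overlapped. Among these were Sema7a over Plxnc1 (8.49 to 10.9 in controls, 7.47 to 8.78 in mutants) and Sema3e over Plxnd1, a pair that steers vessels as well as axons (0.207 to 0.216 in controls, 0.181 to 0.254 in mutants).

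Plxna1 was at 115, 137 and 137 CPM in controls and at 144, 132 and 142 CPM in mutants, with a log2 fold change of 0.10 ± 0.09 (SE, edgeR adjusted p 0.926). The gene Gm26811 on the opposite strand covers 10.7% of its exon sequence, and whether counting used strand is not given in the sources used here. Plxna3 on the X chromosome was at 44.3, 48.2 and 60.0 CPM in controls and 41.3, 51.8 and 50.7 CPM in mutants, and its highest value was in control replicate 3. Its log2 fold change of -0.08 ± 0.11 became 0.05 without that library. Nrp2, the coreceptor of Sema3f, was the lowest of this family per length, at 4.35 ± 0.384 CPM per kb in controls and 4.16 ± 0.265 in mutants (SD, n = 3), with -0.06 ± 0.09 (SE, edgeR adjusted p 0.972).

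In the slit and robo family, 3 members had positive and 3 negative log2 fold changes, from -0.15 to 0.09. Slit1, the slit with the highest level per length, was at 38.2, 42.0 and 39.5 CPM in controls and 44.1, 38.0 and 44.9 CPM in mutants, which overlap, at 0.09 ± 0.09 (SE, edgeR adjusted p 0.950). Slit2 was at 25.5, 32.2 and 33.4 CPM in controls and 31.6, 27.5 and 24.7 CPM in mutants, at -0.12 ± 0.12 (adjusted p 0.941). Robo2, the highest receptor of the family, spanned 109 to 145 CPM in controls and 111 to 135 CPM in mutants, so the mutants lay inside the controls. Its log2 fold change was -0.05 ± 0.10, and that of Robo1, 846 kb away on chromosome 16, was 0.02 ± 0.10. Robo3, a divergent receptor needed for commissural axons to cross the midline, was at 21.9, 27.7 and 31.7 CPM in controls and at 18.2, 27.1 and 28.0 CPM in mutants. Mutant replicate 1 was the lowest of the 6 libraries, and the log2 fold change of -0.15 ± 0.15 became 0.02 without it.

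Among the netrin genes, Unc5b, a repellent netrin receptor also found on vessels, was at 85.3, 86.4 and 88.2 CPM in controls and at 82.0, 69.9 and 75.8 CPM in mutants. The control values were tight, at a CV of 1.69%, and lay above all mutant values. Its log2 fold change was -0.19 ± 0.08 (SE, edgeR adjusted p 0.657). Ntn1, the attractant itself, was at 64.6, 68.3 and 75.1 CPM in controls and at 74.4, 66.7 and 65.1 CPM in mutants, which overlap. Ntn4 was at 34.6, 31.9 and 29.5 CPM in controls and at 34.4, 27.6 and 26.1 CPM in mutants, at -0.13 ± 0.11 (adjusted p 0.931). Draxin, a secreted repellent, was the lowest ligand of this family, at 18.5, 19.0 and 24.8 CPM in controls and 19.4, 16.3 and 18.4 CPM in mutants. All but 1 of its 6 values lay between 16.3 and 19.4 CPM, and its log2 fold change was -0.20 ± 0.12 (adjusted p 0.889).

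Dcc was sparse throughout, at 8.58, 10.3 and 12.3 CPM in controls and at 13.4, 9.48 and 8.58 CPM in mutants. Its log2 fold change was 0.01 ± 0.17 (SE), and the interval from -0.35 to 0.37 is among the wider ones. Per length, Ntn1 stood at 12.8 to 15.8 times Dcc in controls and at 11.6 to 15.9 times in mutants. Rgma, the highest ligand of this group at 16.2 ± 0.423 CPM per kb in controls (SD, n = 3), was at 87.0, 91.3 and 90.6 CPM in controls and 103, 81.0 and 93.9 CPM in mutants, at 0.04 ± 0.09 (SE, edgeR adjusted p 0.984). The mutant values spread around the controls without a shift.

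The members moved together from library to library within a genotype. Control replicate 1 was the lowest of the 3 controls for 45 members (83.3%), against 36.9% of all genes tested, and control replicate 3 was the highest for 36 (66.7%, against 34.9%). Among mutants, replicate 1 was the highest for 41 members (75.9%, against 37.8%). The median deviation from the group mean on the log2 scale was -0.12 in control replicate 1 and 0.12 in mutant replicate 1, larger than the median log2 fold change between genotypes of -0.05. Without control replicate 1 that median was -0.09 with 45 members below 0, and without control replicate 3 it was 0.02 with 24 members below 0, so the lean of the set toward lower mutant values rested on single libraries. Control replicate 3 was the mouse that was male by its sex-linked counts. Without mutant replicate 2, a female by those counts, the median was 0.0024 with 26 members below 0. The part of sex in the lean was not tested. On all libraries 34 of 54 members (63.0%) were below 0, against 52.4% of all genes tested.

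The members are long genes, with a median of 7253 exonic bases against 4173 for the other genes tested, and the rank of control replicate 1 among the controls differed with gene length. Among 2702 other tested genes with 8000 exonic bases or more, control replicate 1 was the lowest control for 66.7%, and among 2649 with under 2000 bases for 18.2%. Among the 6023 with at least 4000 but under 8000 bases, the class that holds the median member, it was the lowest for 41.7%, beside 83.3% of the members. Mutant replicate 1 was the highest mutant for 38.2% of the genes with 8000 bases or more, 39.1% of those with at least 4000 but under 8000 and 33.0% of those under 2000, beside 75.9% of the members. The part of gene length in the members' values was not tested.

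**Figure D4:**
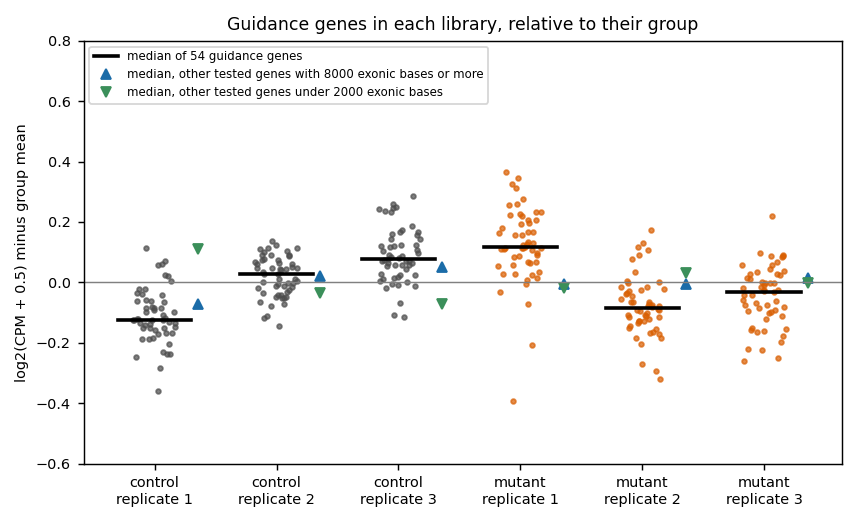
Each point is 1 of the 54 guidance genes, as log2(CPM + 0.5) minus the mean of its group (vertical axis), in each of the 6 libraries (horizontal axis), with the member median as a black line. Triangles give the medians of other tested genes by exonic length. The members sit low in control replicate 1 (median -0.12) and high in mutant replicate 1 (median 0.12).

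The structure of the genes was also compared, since the study set genes without introns apart. None of the 54 members had a single exon, against 7.6% of all genes tested. The annotated transcript with the most exons had 4 to 39 of them, with a median of 18 against 8 for the other genes. The members lie on 18 chromosomes, and none is on chromosome 14, which holds Mphosph8. No more than 1.53% of the 50-base words of any member occur in transcripts of another gene, so few reads could be shared between family members. That search covered the sense direction and left out genes that overlap a member on its own strand. Genes on the opposite strand covered up to 14.1% of a member's exon sequence, the highest being Efna3 with Gm15998.

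The wider pathway was tested in the same fit. Of 82 other guidance genes and effectors (26 further family members, 10 adhesion coreceptors and 46 intracellular effectors), none was called in either direction, beside 0.628% of all genes tested. Log2 fold changes ran from -0.31 to 0.22 with a median of -0.02, 32 positive and 50 negative. At an unadjusted p under 0.05 there were 4 (4.88%), against 6.51% of all genes tested. All 4 had lower means in mutants, as 2.41% of all genes tested did at that p, and none had a higher mean, against 4.09%. The smallest p belonged to Plxnb3, a plexin of oligodendrocytes that binds Sema5a, at 68.5, 71.6 and 74.8 CPM in controls and 58.0, 60.2 and 55.8 CPM in mutants. These groups did not overlap, at a log2 fold change of -0.30 ± 0.08 (SE, edgeR adjusted p 0.131). The other 3 were Dpysl2, which relays semaphorin signals inside the growth cone, at -0.22 ± 0.09 (adjusted p 0.558), Nfasc, an adhesion molecule of neurons and oligodendrocytes, at -0.23 ± 0.09 (adjusted p 0.635), and Sema4f at -0.20 ± 0.08 (adjusted p 0.640). Neo1, the receptor of Rgma, was at -0.06 ± 0.09 (adjusted p 0.975).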

How the data were processed

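PolyA RNA of 6 whole brains was sequenced as single reads of 50 bases. The authors trimmed the reads with Trim Galore 0.5.0, removed abundant sequences with Bowtie2 2.3.4.1, aligned the rest to GRCm38 with STAR and ran featureCounts (Subread 1.6.2) on Ensembl genes. What they deposited are raw read counts, without normalisation. The strand setting is not given in the sources used here. Symbols, coordinates and exon lengths came from GENCODE M21 on GRCm38.

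All 6 libraries entered 1 fit in edgeR 4.0.16 (R 4.3.3), after filterByExpr and TMM scaling, with no term but genotype, and p-values were adjusted by Benjamini-Hochberg over all 16731 genes tested. A gene was called at an adjusted p under 0.05. Standard errors came from the F statistic and intervals from the t distribution with the fit's degrees of freedom. CPM used effective library sizes, and CPM per kb divided by the union of exons. The study describes the groups as littermates, and the labels used here do not tie single mice to litters. The p-values set the difference between genotypes against the spread between these brains, which edgeR estimates for each gene partly from the other genes. Replicates differed by more than sampling noise (chi-square per degree of freedom 3.42 to 12.3). The steps were tested on simulated data. As alternatives, the fit was repeated in DESeq2 1.42.0 and limma-voom (limma 3.58.1), with RLE scaling, without the filter, with a minimum of 1 CPM in 3 libraries, with a replicate block, and without each library in turn.

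The members, the gene lists and the ligand and receptor pairs were chosen with earlier results of these data known. Members described one by one were the 3 with the smallest p in each family and the highest and lowest per length in each family and role, with every called or untested member added by the same rule. Other members were named for their place in the pathway. Of the other guidance genes, those with an unadjusted p under 0.05 were named, and Neo1 was added after its values were seen. Ntn3 was not analysed here. 1 further marker gene is not reported here and was left out of its list.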

Additional observations from a re-analysis of the deposited data

How the results depend on the processing

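The 54 members were refitted under 12 alternatives. On all libraries the number of members called was 0 with DESeq2, with limma-voom and with every edgeR fit that filtered low counts. It was 1 (Sema4d) in edgeR with no filter on low counts. When 1 library was left out it was 0 to 1, the 1 being Sema4d without mutant replicate 1. Members at an unadjusted p under 0.05 numbered 4 to 5 under the other alternatives and 2 to 10 when 1 library was left out, with 10 without mutant replicate 1 and 2 without control replicate 2 or without control replicate 3. The share of all genes tested moved too, being 6.51% on all libraries, 9.10% without mutant replicate 1, 5.29% and 5.87% without control replicate 2 and 3, and 2.43% in DESeq2, which tested 32272 genes. The cause was not tested. The other guidance genes and effectors gave 0 calls under every alternative run. The median log2 fold change of the members stayed within 0.106, the spread of the controls' own medians, from -0.10 to 0.02. Mphosph8 stayed past the threshold, at -1.13 to -0.85.

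Of the 54 members, 23 kept their sign under all 12 alternatives and 31 changed it under at least 1, none of which was farther than 0.15 from 0 on all libraries. When 1 library was left out, log2 fold changes ran from -0.27 to 0.082 for Epha6, -0.066 to 0.10 for Sema3a, -0.18 to 0.055 for Plxna3, -0.13 to 0.10 for Robo1, -0.14 to 0.080 for Robo2, -0.28 to 0.024 for Robo3, -0.20 to 0.16 for Dcc and -0.037 to 0.13 for Rgma. limma-voom gave -0.00029 for Sema3a and -0.0013 for Dcc.

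The replicate numbers were not taken as pairs, since libraries with the same number correlated at 0.10, -0.05 and 0.08 in their deviations from the group means. With the replicate block 0 members were called, 4 had an unadjusted p under 0.05 and the median was -0.04, and 124 genes were called over the whole table against 105 without it.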

Other observations

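A few members went against the library pattern that most of the set followed. Mutant replicate 1 was the highest mutant for 41 of 54 members and the lowest for 4. Robo3 and Plxna3 were among the latter, at 18.2 CPM against 27.1 and 28.0 CPM and at 41.3 CPM against 51.8 and 50.7 CPM in the other mutants. Nrp1, a receptor shared by Sema3a and vascular growth factor, had one of the widest spreads among mutants, at 56.5, 35.5 and 43.6 CPM, beside 41.6, 47.3 and 47.4 CPM in controls. Epha8 and Ephb2 lie 93.4 kb apart on chromosome 4 and were at 32.5, 29.9 and 33.5 CPM and at 56.1, 46.7 and 51.0 CPM in mutants, against 28.1, 29.8 and 35.3 CPM and 50.3, 53.6 and 56.4 CPM in controls.

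Summed per length over all 11 semaphorins, the level was 144, 146 and 154 CPM per kb in controls and 142, 131 and 129 CPM per kb in mutants, without overlap. Over the 10 plexins and neuropilins it was 97.1, 112 and 112 CPM per kb in controls and 116, 101 and 107 CPM per kb in mutants, which overlap. The semaphorin sum is led by Sema7a, Sema4d and Sema6a, which were each without overlap, as 11.6% of all genes tested were. The 7 oligodendrocyte markers were lower in the same mutants, with a median log2 fold change of -0.46. The summed oligodendrocyte progenitor and choroid plexus markers were lower there too. The part of these markers in the semaphorin sum was not tested.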
